A study of Homo sapiens with 8 samples.

Results

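The 10 genes TPM1, TPM2, TPM3, TPM4, CNN1, CNN2, CNN3, TAGLN, TAGLN2 and CALD1 encode tropomyosins, calponins, transgelins and caldesmon, the proteins that lie along or bind the side of actin filaments. Their RNA was read in a pair of cell lines, OVSAHO and KURAMOCHI, each grown with either simvastatin or L-778123, on one-color arrays of total RNA. Members were chosen by symbol, through the transcript name that each array probe carries, and 9 of the 10 genes had a probe, with 19 probes among the 33753 probes tested and the 22428 genes with a probe. No probe analysed here carries the name of CNN2. The choice of genes rested on earlier readings of both drug comparisons and of their difference between the lines, in which CNN1 and CALD1 moved apart. Values from these 3 comparisons are therefore a description and carry no p for the members, and a call there says only which members passed the threshold set for all probes. Only the comparison between the lines, averaged over the drugs, was tested for them.

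OVSAHO and KURAMOCHI are established lines of ovarian cancer cells. Simvastatin inhibits HMG-CoA reductase, the enzyme that limits the mevalonate pathway, and L-778123 inhibits both farnesyl transferase and geranylgeranyl transferase, which attach lipids of that pathway to proteins. The 4 groups were OVSAHO with simvastatin, OVSAHO with L-778123, KURAMOCHI with simvastatin and KURAMOCHI with L-778123, each with 2 arrays and each line standing for a single model. The study set the drugs against each other to look for effects of simvastatin beyond prenylation. Cells without either drug were not analysed here, so a difference does not show which drug moved a gene. The concentrations and times of the array cultures are not given in the text of the study, and nothing in the labels says that arrays of a group came from separate cultures, so p-values measure only the spread between these samples.

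All 8 arrays lay on 1 slide, where position on it and group cannot be told apart. Per array, intensity had a 75th percentile of 324 to 437, 51.8% to 57.5% of 58162 probes stood well above background, and saturated spots numbered 0. All 19 probes of the members were well above background on all 8 arrays. Of the markers of other cell types, COL1A2, DCN and LUM of fibroblasts and PECAM1 of endothelium were above background on none of the 8 arrays, and COL1A1 was so on all 4 KURAMOCHI arrays only. PDGFRB, also of fibroblasts, was above background on 1 array of each group, and CD3E of leukocytes on 1 array of OVSAHO with L-778123. Of the 4 smooth muscle markers with a probe, 3 (DES, CNN1 and ACTG2) were above background on all 8 arrays, and MYH11 on the 2 arrays of KURAMOCHI with L-778123 alone. CDH5 and PTPRC were above background on all 8 arrays, and the 9 markers of serous ovarian carcinoma were too. Of these 9, CDH1 and MUC16 were dim in KURAMOCHI. Relative to the array's 75th percentile, mean log2 signals with simvastatin and L-778123 were -2.24 and -2.23 for CDH1 there, and -3.09 and -2.09 for MUC16. In OVSAHO they were 3.90 and 3.19 for CDH1, and 2.81 and 0.63 for MUC16. The part of other cell types in the values below was not tested.

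Tropomyosins are coiled coils that run end to end along the actin filament and set which other proteins can reach it. Calponins and transgelins share a calponin homology domain, and caldesmon binds actin, tropomyosin and calmodulin and restrains myosin. CNN1, TAGLN and the long form of caldesmon are classical markers of smooth muscle, where serum response factor (SRF) with its actin-regulated cofactors drives such genes through CArG boxes, while TPM3, TPM4, CNN3 and TAGLN2 are found in many cell types.

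Promoter letters are shown for 3 members because CNN1 and CALD1 are the genes that the rule for the members names and TPM4 holds the letters of a CArG box. The windows are the 250 bases before a transcript start in RefSeq (GRCh38.p14), on the strand of the gene, and 9 of the 10 genes, TAGLN aside, had one or more, 19 in all. Capitals mark a match to a searched motif, which was the CArG box, the M-CAT element (CATTCC) or the AP-1 site (TGANTCA), on either strand, and no window of a member held more than 1 match.
TPM4, chr19:16067288-16067537, plus strand, capitals for the CArG box: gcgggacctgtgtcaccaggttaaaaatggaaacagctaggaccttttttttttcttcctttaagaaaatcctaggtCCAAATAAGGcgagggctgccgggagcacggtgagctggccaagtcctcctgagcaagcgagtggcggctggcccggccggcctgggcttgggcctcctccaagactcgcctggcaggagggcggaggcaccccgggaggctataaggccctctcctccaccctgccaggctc
CNN1, chr19:11538601-11538850, plus strand, no match: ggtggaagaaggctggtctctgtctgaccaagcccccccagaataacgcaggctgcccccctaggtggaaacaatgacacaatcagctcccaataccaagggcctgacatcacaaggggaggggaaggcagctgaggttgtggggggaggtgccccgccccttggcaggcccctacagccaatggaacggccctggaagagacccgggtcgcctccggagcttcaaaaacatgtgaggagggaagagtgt
CALD1, chr7:134711249-134711498, plus strand, capitals for the AP-1 site: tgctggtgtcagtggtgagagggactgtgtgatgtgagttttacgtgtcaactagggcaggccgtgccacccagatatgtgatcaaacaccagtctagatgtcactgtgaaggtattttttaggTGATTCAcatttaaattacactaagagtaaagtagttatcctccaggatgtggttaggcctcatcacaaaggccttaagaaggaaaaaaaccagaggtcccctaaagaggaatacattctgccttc

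The CArG box of TPM4 lay in 1 of its 3 windows, at bases -173 to -164 from that transcript start, and the AP-1 letters of CALD1 at -126 to -120. A CArG box was also present in the window of CNN2, at -89 to -80, which has no array value here. Among all 35116 windows of this length, 1.16% held a CArG box, 11.9% an M-CAT element and 6.57% an AP-1 site. M-CAT letters stood in another 2 of the 4 windows of CALD1 and in 1 of the 2 windows of CNN3, and AP-1 letters in 1 of the 3 windows of TAGLN2. The windows of TPM1, TPM2, TPM3 and CNN1 held none of these letters. A match is a description of letters and not of a bound site, and a window without one says only that these letters are not in it. Which of the transcript starts of a gene is used in these cells was not measured.

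In both lines most of these genes gave less signal with simvastatin than with L-778123. At the main probe, the brightest of a gene, 7 of 9 genes were lower in OVSAHO and 9 of 9 in KURAMOCHI, and the median log2 differences were -0.71 and -1.36, beside 0.014 and 0.011 over all genes tested. A gene was called at an adjusted p under 0.05 (limma, Benjamini-Hochberg over all probes) with a fold of at least 2. In OVSAHO this called 5 of 9 genes, TPM1, TAGLN and CALD1 as lower and CNN1 and TAGLN2 as higher, where 11.6% of all genes were called, 5.87% as lower and 5.69% as higher. In KURAMOCHI it called 6 of 9 genes, all lower, namely TPM1, TPM2, TPM4, CNN1, TAGLN and CALD1, where 5.37% of all genes were called and 2.94% as lower. At a fold of 1.5 the count in OVSAHO was 8 of 9 genes, where 23.8% of all probes were called, and with no fold threshold it was 9, where 48.1% were. Since the genes were chosen on these comparisons, nothing is read from the difference between these shares. In cultured cells read in bulk, fewer cells that express a gene and less RNA of it per cell cannot be told apart.

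**Figure D1:**
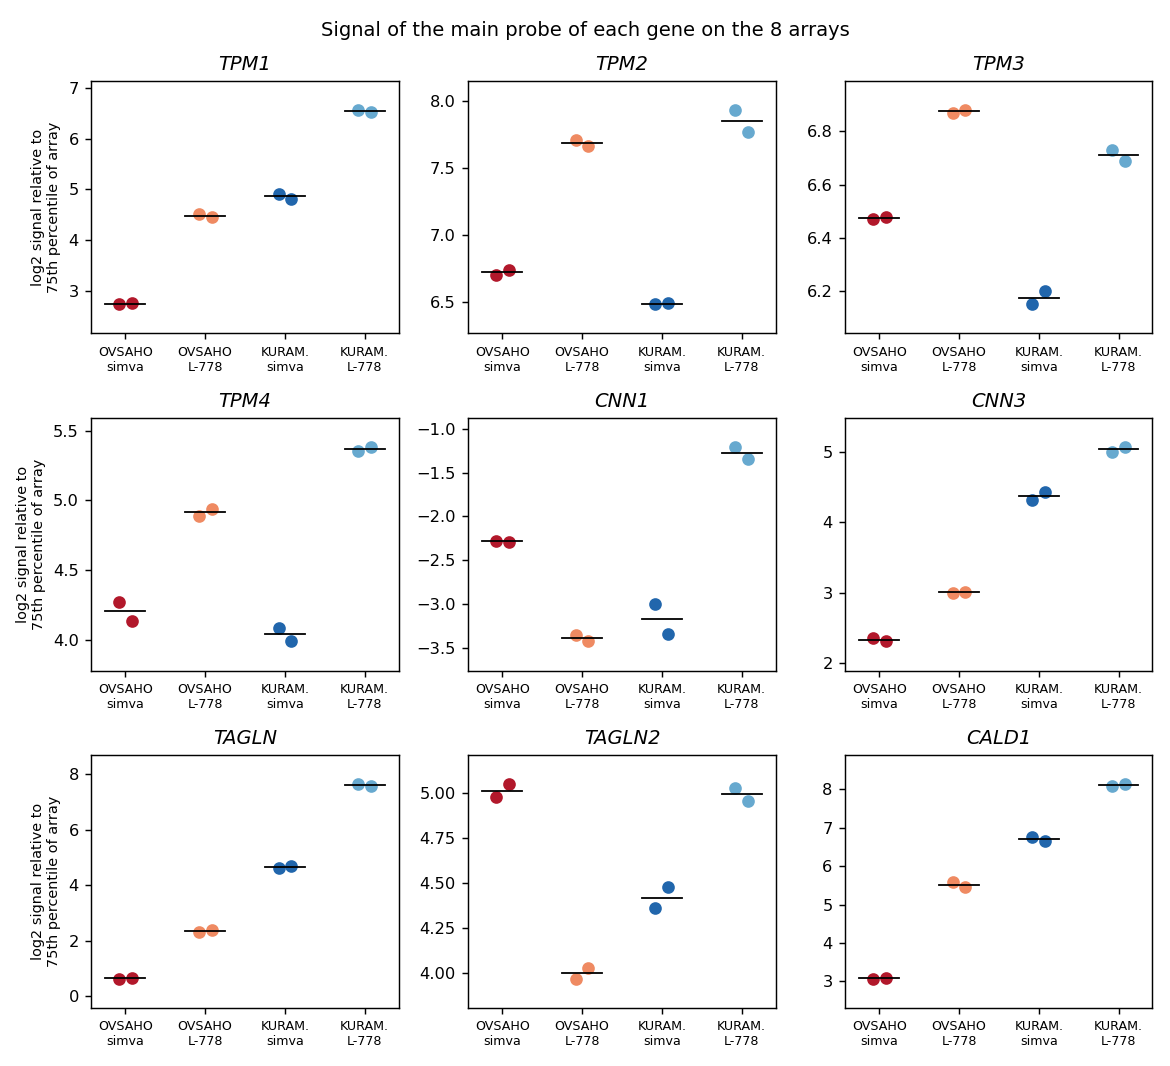
Log2 signal of the main probe of each of 9 genes, relative to the array's 75th percentile (vertical axes, which differ between genes and do not start at 0), in the 4 groups (horizontal axes; KURAM. is KURAMOCHI, simva is simvastatin, L-778 is L-778123). Points are the 2 arrays of a group and lines their mean; CNN1 and TAGLN2 are higher with simvastatin in OVSAHO and lower with it in KURAMOCHI.

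Signals are given as log2 relative to the 75th percentile of the array, and each value can be compared only with values of the same probe. At every main probe the 2 arrays with simvastatin and the 2 with L-778123 did not overlap, in either line, a separation that 77.1% of all probes tested showed in OVSAHO and 69.9% in KURAMOCHI. Ordered by level, neighbouring groups were also apart at the main probe of every gene except TAGLN2. Other probes of TPM3 and the second probe of TPM4 did show overlaps. The share of all probes with such a separation was not counted, so nothing is read from it.

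TPM1 encodes alpha-tropomyosin, whose isoforms serve stress fibres as well as muscle. Its main probe, which carries the name of a RefSeq transcript of TPM1, read 2.74 and 2.77 in OVSAHO with simvastatin and 4.51 and 4.45 with L-778123. In KURAMOCHI the log2 signal was 4.92 and 4.82 with simvastatin and 6.56 and 6.52 with L-778123. The order was the same in both lines, and even the lower KURAMOCHI group lay above both OVSAHO groups. The drug difference was a log2 of -1.73 in OVSAHO (standard error 0.0613, 3.31-fold lower with simvastatin) and -1.68 in KURAMOCHI (standard error 0.0613, 3.20-fold lower). The other 2 probes of TPM1 gave differences within -1.73 to -1.56 in OVSAHO and -1.68 to -1.54 in KURAMOCHI, main probe included. The difference between the lines was -0.05 with a 95% interval of -0.267 to 0.162, and its sign turned to 0.01 with quantile normalization, so no direction is given to it.

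TPM2 encodes beta-tropomyosin, another isoform of muscle and of contractile fibroblasts. It read 6.70 and 6.74 in OVSAHO with simvastatin against 7.71 and 7.66 with L-778123, and 6.48 and 6.49 in KURAMOCHI with simvastatin against 7.93 and 7.77 with L-778123. The groups of 1 drug lay close together in the 2 lines, unlike those of TPM1. Its log2 difference was -0.96 in OVSAHO (standard error 0.071, 1.95-fold), just short of the 2-fold threshold, and -1.36 in KURAMOCHI (2.57-fold). The second probe of TPM2 gave -1.02 and -1.45, so that it lay just past the threshold in OVSAHO (2.03-fold).

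TPM4, a tropomyosin of non-muscle cells, read 4.27 and 4.14 in OVSAHO with simvastatin and 4.89 and 4.94 with L-778123. In KURAMOCHI its log2 signal was 4.09 and 3.99 with simvastatin and 5.35 and 5.38 with L-778123. The lowest and the highest of the 4 groups were both in KURAMOCHI. For TPM4 this is a log2 difference of -0.71 in OVSAHO (standard error 0.0699, 1.64-fold) and -1.32 in KURAMOCHI (standard error 0.0699, 2.50-fold), and the second probe gave -0.42 and -1.10. The difference between the lines was 0.61 (95% interval 0.365 to 0.854), below 2-fold.

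TPM3, the tropomyosin of slow muscle that also has non-muscle isoforms, differed least between the drugs. It read 6.47 and 6.48 in OVSAHO with simvastatin against 6.87 and 6.88 with L-778123, and 6.15 and 6.20 in KURAMOCHI against 6.73 and 6.69. These are log2 differences of -0.40 (1.32-fold) and -0.54 (1.45-fold), and neither line reached 2-fold. The 6 probes of TPM3 ranged from -0.40 to -0.09 in OVSAHO and from -0.54 to 0.13 in KURAMOCHI, with medians of -0.34 and -0.42. When the median signal over the 6 probes was taken on each array first, the differences were -0.21 and -0.15. TPM3 has near-identical copies elsewhere in the genome, and the files do not give the sequences of the probes, so which transcripts its dimmer probes read is uncertain.

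CNN1, basic calponin, binds actin and dampens the myosin ATPase in smooth muscle, and its drug difference had opposite directions in the 2 lines. Its single probe read -2.28 and -2.29 in OVSAHO with simvastatin and -3.36 and -3.43 with L-778123. In KURAMOCHI it read -3.00 and -3.35 with simvastatin and -1.21 and -1.34 with L-778123. Simvastatin thus went with the higher level in OVSAHO and with the lower one in KURAMOCHI, on every array. The log2 difference was 1.11 in OVSAHO (standard error 0.121, 2.16-fold higher) and -1.90 in KURAMOCHI (standard error 0.121, 3.74-fold lower), and these differ by 3.01 (standard error 0.17). The probe is dim, and with the normexp background correction the 3 values became 0.67, -1.13 and 1.79, which keeps both directions but no longer calls CNN1 in OVSAHO.

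CNN3, acidic calponin, is the calponin of many cells outside muscle, and its values did not show the turn of CNN1. It read 2.36 and 2.31 in OVSAHO with simvastatin against 3.00 and 3.01 with L-778123. In KURAMOCHI it read 4.31 and 4.42 with simvastatin against 5.00 and 5.06 with L-778123. Its log2 difference was -0.67 in both lines (standard error 0.0647, 1.59-fold lower), short of the threshold. The difference between the lines was -0.01 with a 95% interval of -0.233 to 0.221, and its sign changed with several alternatives.

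TAGLN encodes transgelin, also called SM22-alpha, an actin-bundling protein and early marker of smooth muscle. It read 0.63 and 0.66 in OVSAHO with simvastatin and 2.31 and 2.40 with L-778123. In KURAMOCHI it read 4.62 and 4.71 with simvastatin and 7.64 and 7.59 with L-778123. The 4 groups were far apart, in the order of TPM1. The log2 difference was -1.71 in OVSAHO (standard error 0.0644, 3.27-fold lower) and -2.95 in KURAMOCHI (standard error 0.0644, 7.73-fold lower), the latter the largest drug difference among the 9 genes in either line. The difference between the lines was 1.24 (standard error 0.0911), and the second probe of TAGLN gave -1.74 and -2.93.

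TAGLN2, the transgelin of epithelial and blood cells, resembled CNN1 in direction. It read 4.98 and 5.05 in OVSAHO with simvastatin and 3.97 and 4.03 with L-778123, against 4.36 and 4.48 in KURAMOCHI with simvastatin and 5.03 and 4.96 with L-778123. The OVSAHO arrays with simvastatin overlapped the KURAMOCHI arrays with L-778123. The log2 difference was 1.02 in OVSAHO (standard error 0.0692, 2.02-fold higher), just past the threshold, and -0.58 in KURAMOCHI (1.49-fold lower), and these differ by 1.60 (standard error 0.0978). Its call in OVSAHO was lost without OVSAHO simvastatin replicate 2 (0.98) and without OVSAHO L-778123 replicate 1 (0.99), and with normexp (0.99).

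CALD1, caldesmon, was lower with simvastatin in both lines, and it was the only called member whose drug difference was larger in OVSAHO than in KURAMOCHI by 2-fold or more. It read 3.07 and 3.09 in OVSAHO with simvastatin and 5.58 and 5.45 with L-778123. In KURAMOCHI it read 6.75 and 6.65 with simvastatin and 8.10 and 8.13 with L-778123. For CALD1 the log2 difference was -2.44 in OVSAHO (standard error 0.0708, 5.41-fold lower), the largest of the 9 genes there, and -1.41 in KURAMOCHI (standard error 0.0708, 2.66-fold lower). These differ by -1.02 (standard error 0.1, 2.03-fold), close to the threshold, and by -0.95 without OVSAHO L-778123 replicate 1 and -0.97 without KURAMOCHI simvastatin replicate 1. The same difference was -0.96 with quantile normalization.

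**Figure D2:**
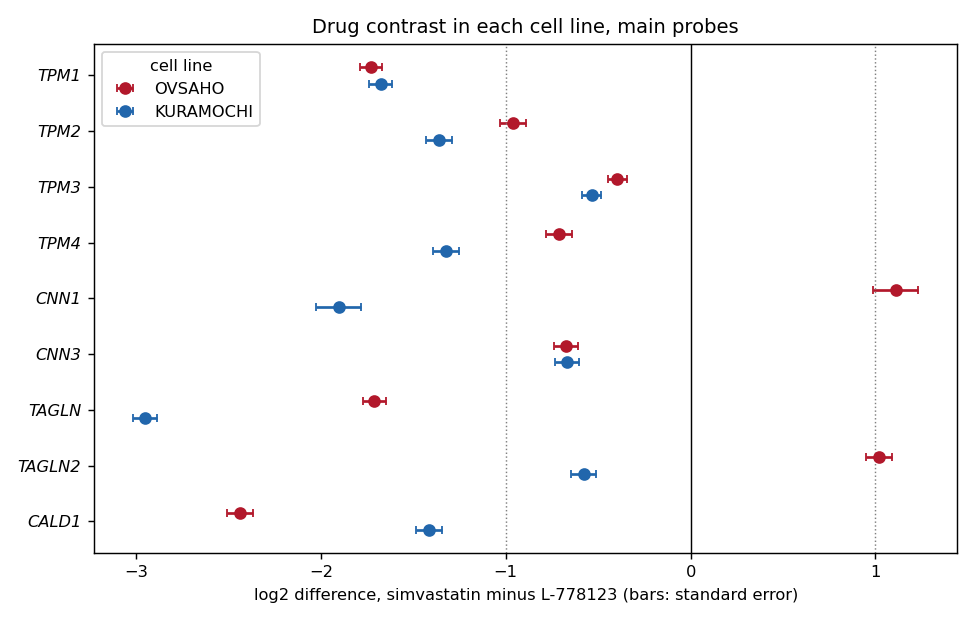
Log2 difference of simvastatin minus L-778123 (horizontal axis) at the main probe of each gene, in OVSAHO (red) and KURAMOCHI (blue). Points are estimates from 2 arrays against 2, bars standard errors of the fit, and dotted lines 2-fold; CNN1 and TAGLN2 lie on opposite sides of 0 in the lines, and CALD1 alone among the called genes is further from 0 in OVSAHO by 2-fold.

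Taking the difference of the drug comparison between the lines for all members, 4 of 9 genes were called, CNN1, TAGLN and TAGLN2 with the higher value in OVSAHO and CALD1 with the lower, where 7.56% of all genes were called. Nothing is read from this count either, since these values chose the members. The median over the 9 genes was 0.40. TPM1 differed by -0.05, CNN3 by -0.01 and TPM3 by 0.14 (95% interval -0.044 to 0.323). TPM2 differed by 0.40 (95% interval 0.154 to 0.652), which is 1.32-fold. The intervals given for this difference, here and above, describe the spread between arrays and are not tests of the members.

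The members were chosen on the drug comparisons and on their difference between the lines. The average difference between the lines is a separate comparison, and here the genes were tested. Earlier results of these data were known when this test was chosen, so its p-values do not come from an independent choice of genes. Averaged over the drugs, TAGLN, CALD1, TPM1 and CNN3 were lower in OVSAHO than in KURAMOCHI by at least 2-fold, and no member was higher by that size. These 4 of 9 genes stand beside 34.7% of all genes called in this comparison and 16.4% called as lower in OVSAHO, and the median over the 9 genes was -0.62 beside 0.028 over all genes. With no fold threshold 8 of 9 genes were called, where 77.7% of all probes were. TAGLN differed most, at a log2 of -4.64 (standard error 0.0455, 24.9-fold, limma adjusted p = 6.32e-08), and its second probe gave 26.3-fold (limma adjusted p = 4.24e-08). CALD1 followed at -3.11 (standard error 0.0501, 8.64-fold, limma adjusted p = 1.71e-07).

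TPM1 was 4.25-fold lower in OVSAHO at its main probe (log2 -2.09, standard error 0.0434, limma adjusted p = 3.45e-07), and its 3 probes ranged from -2.09 to -1.77. CNN3 was 4.08-fold lower (log2 -2.03, standard error 0.0458, limma adjusted p = 4.41e-07). In these 4 genes every OVSAHO array lay below every KURAMOCHI array. How many of all probes are separated in this way between the lines was not counted, so nothing is read from it. CNN1 was lower in OVSAHO by a log2 of -0.62 (1.53-fold, limma adjusted p = 0.00084), short of 2-fold and -0.33 with normexp. The mean joins opposite values, since CNN1 in OVSAHO lay above KURAMOCHI by 0.89 with simvastatin and below it, at -2.12, with L-778123.

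The remaining members differed by 1.17-fold or less in the average over the drugs. TAGLN2 was 1.15-fold lower in OVSAHO (limma adjusted p = 0.0112), again a mean of opposite values, 0.60 with simvastatin and -0.995 with L-778123. TPM4 was 1.11-fold lower (log2 -0.14, limma adjusted p = 0.0372). The second probe of TPM4 gave -0.22 (limma adjusted p = 0.115). TPM3 was 1.17-fold higher in OVSAHO (log2 0.23, limma adjusted p = 0.00165), a direction that turned to -0.03 with quantile normalization and in the table of the authors and to -0.01 when the median signal over its probes was taken on each array first, while the median of its 6 probe differences was 0.12. For TPM2 the log2 difference was 0.03 with a 95% interval of -0.09 to 0.159 (limma adjusted p = 0.552), and quantile normalization gave -0.24.

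**Figure D3:**
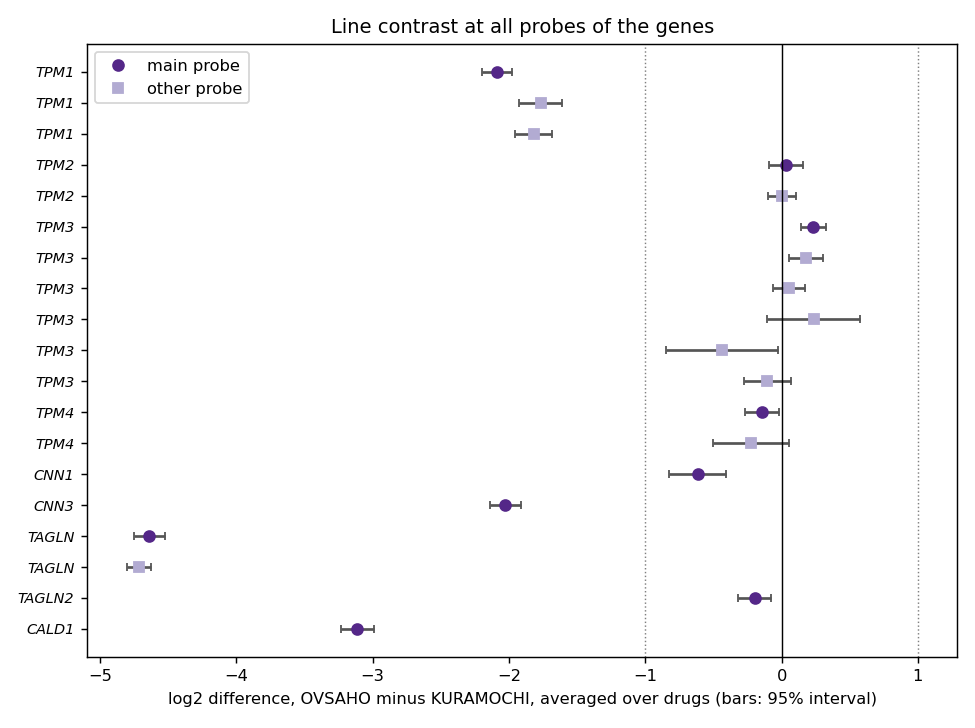
Log2 difference of OVSAHO minus KURAMOCHI, averaged over simvastatin and L-778123 (horizontal axis), at all 19 probes of the 9 genes (rows). Circles are main probes, squares other probes, bars 95% intervals from 8 arrays, and dotted lines 2-fold; the probes of TAGLN, CALD1, TPM1 and CNN3 lie beyond 2-fold on the lower side and those of TPM2, TPM3, TPM4, CNN1 and TAGLN2 do not.

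Read within a drug, as a description, the gap between the lines changed for TAGLN and CALD1 in opposite ways. TAGLN was 16.2-fold higher in KURAMOCHI than in OVSAHO with simvastatin and 38.3-fold higher with L-778123. CALD1 was 12.3-fold higher in KURAMOCHI with simvastatin and 6.07-fold higher with L-778123. For TPM1 the same values were 4.33-fold and 4.18-fold, and for CNN3 4.08-fold and 4.07-fold, nearly equal with either drug.

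Of the proteins that cap or regulate tropomyosin-coated filaments, namely tropomodulins, leiomodins, troponins and nebulins, 15 of 17 genes were tested. In OVSAHO 4 were called higher and 3 lower with simvastatin (median log2 0.61), and in KURAMOCHI 0 higher and 3 lower (median -0.06), where 11.6% and 5.37% of all genes were called. LMOD1, a leiomodin of smooth muscle that nucleates actin filaments, read -0.10 and -0.41 in OVSAHO with simvastatin against -2.74 and -2.92 with L-778123, and -1.74 and -2.25 in KURAMOCHI against 0.56 and 0.76. It was higher with simvastatin in OVSAHO (log2 2.58, limma adjusted p = 0.000304) and lower in KURAMOCHI (-2.66, limma adjusted p = 0.000667), the directions of CNN1. TNNC1, troponin C of slow and cardiac muscle, was lower in both, at -3.23 in OVSAHO (limma adjusted p = 1.28e-05) and -1.18 in KURAMOCHI (limma adjusted p = 0.000305). TNNT2, cardiac troponin T, was lower in KURAMOCHI (-1.30, limma adjusted p = 0.0237). In OVSAHO with simvastatin the probe of TNNT2 was not well above background on either array, so that the measured means of -4.96 and -3.10 give only a bound, at least 2.69-fold in favour of L-778123. The call in OVSAHO rests on the measured difference of -1.86 (limma adjusted p = 0.0042), which uses these dim signals, and not on the bound. That bound takes, on each dim array, the signal of the probe or the smallest signal of any probe above background, whichever was higher.

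Among other smooth muscle contractile genes, 16 of 20 were tested. In KURAMOCHI 7 were called lower and 0 higher with simvastatin (median log2 -0.85), where 5.37% of all genes were called, and in OVSAHO 3 lower and 1 higher (median 0.10), where 11.6% were. LMOD1 belongs to this list as well as to the preceding one, and it is counted in both and is the 1 higher call here. ACTG2, the gamma actin of smooth muscle, was lower in both lines, at -5.93 in KURAMOCHI (limma adjusted p = 2.82e-05) and -2.73 in OVSAHO (limma adjusted p = 2.04e-05). ACTA2, the alpha actin of smooth muscle, was lower in KURAMOCHI at -5.09 (limma adjusted p = 4.17e-05), while in OVSAHO its difference was 0.22 (limma adjusted p = 0.0955). In the comparison of the lines, 8 of the 16 were called lower in OVSAHO and 1 higher (median -0.99), where 34.7% of all genes were called and 16.4% as lower. ACTA2 differed there by -7.20 (limma adjusted p = 4.88e-08).

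Other actin binders with calponin homology domains numbered 37 tested of 43. With simvastatin 2 were called higher and 1 lower in OVSAHO (median log2 0.02), which is 8.11% of the list beside 11.6% of all genes. In KURAMOCHI 0 were higher and 5 lower (median -0.35), which is 13.5% beside 5.37%. FLNA, filamin A, which crosslinks actin, differed by -1.79 in KURAMOCHI (limma adjusted p = 0.000152) and -0.81 in OVSAHO, and ACTN1, alpha-actinin of stress fibres, by -1.43 (limma adjusted p = 0.000148) and -0.24. MICAL1, which oxidises actin, was higher with simvastatin in OVSAHO at 1.93 (limma adjusted p = 0.000118), and LMO7 was lower there at -1.21 (limma adjusted p = 0.000157). MICAL1 differed by -0.11 and LMO7 by -0.61 in KURAMOCHI, where neither was called.

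**Figure D4:**
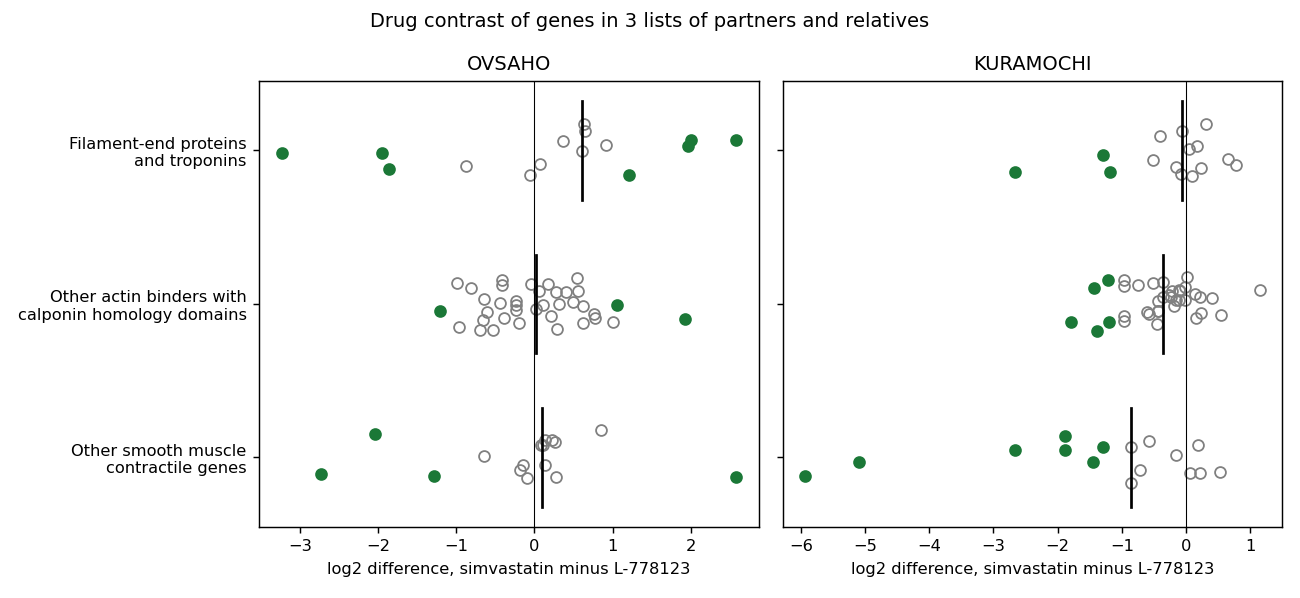
Log2 difference of simvastatin minus L-778123 (horizontal axes, which differ in range) in OVSAHO (left) and KURAMOCHI (right) for the tested genes of 3 lists (rows), spread vertically so that points can be told apart. Filled green points were called, open points were not, and black lines are medians; in KURAMOCHI every called gene of the lists is on the lower side, 7 of 16 among the smooth muscle contractile genes, where 5.37% of all genes were called, and LMOD1 is drawn in 2 lists.

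The genes most like CNN1 and CALD1 were found among 14468 genes by the root mean square difference of log2 signal over the 8 arrays, after each gene was centred on its mean. For CNN1 they were PRSS23, a secreted protease, at 0.246, TP53I11 at 0.304 and MYADM at 0.354. All 3 were higher with simvastatin in OVSAHO, by 1.32, 0.83 and 1.03 on the log2 scale, and lower with it in KURAMOCHI, by -1.27, -1.17 and -1.07. For CALD1 they were CDCA7 at 0.182, CCDC146 at 0.228 and SLC1A3, a glutamate transporter, at 0.281. CDCA7 differed by -2.18 in OVSAHO and -1.18 in KURAMOCHI, close to the values of CALD1, and CCDC146 by -2.43 and -0.83. SLC1A3 differed by -1.80 and -1.35. These genes were picked for their likeness on the same 8 arrays, so the shared directions follow from the choice and are not a separate result.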

How the data were processed

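Total RNA of OVSAHO and KURAMOCHI cells was hybridized to 8 one-color arrays, 2 per group, grouped as labeled. The authors extracted the images with Feature Extraction 11.5.1.1 and deposited the processed intensity of each spot, corrected for background within the array and not normalized between arrays. They also deposited a table of processed intensity, which was quantile normalized although the methods state the 75th percentile; each of its 8 columns correlated best with its own array (r at least 0.9991).

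Control spots and outlier spots (58 to 99 per array) were left out, spots of a probe were averaged, and the 75th percentile of each array was subtracted from its log2 signal. Of 58201 probes, 39 lost all spots of an array and were dropped, and 33753 were tested, those well above background in both replicates of 1 or more groups. Of 50069 identifiers, 24768 were named through a RefSeq table (GRCh38.p14, used for names only, later than the array design), which named 31079 probes. A gene took its brightest probe.

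limma 3.58.1 in R 4.3.3 fitted 4 group means with Benjamini-Hochberg adjustment over all tested probes, in place of the two-way analysis of variance of the methods, which is an alternative. It was tested on simulated data with independent noise on each array. That setting leaves out effects shared by the probes of an array, so it does not show how the fit behaves with them. Calls needed an adjusted p under 0.05 and 2-fold. With 2 arrays against 2, a two-sided exact permutation test cannot go below p = 0.333, and none is given. Python 3.11.15 with matplotlib 3.10.9 drew the figures.

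The members, lists, tests and alternatives were chosen with earlier results of these data known. 1 further gene list is not reported here. Named genes are all members, from each list up to 2 genes per line with the largest called drug difference, and the 3 genes most like CNN1 and CALD1. Alternatives were other background correction (normexp, offset 50, on the median foreground since the mean was not used here), normalization, filters, floor, thresholds, tests and probes, a replicate block, and each array left out.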

Additional observations from a re-analysis of the deposited data

Results flagged for a closer look

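In CNN1 the drug comparison differed between the lines by 3.01 on the log2 scale, with every OVSAHO array with simvastatin above those with L-778123 and every KURAMOCHI array with simvastatin below, and since these values chose the gene, no p is given and the difference was not tested independently. TAGLN2 had the same directions and differed by 1.60, likewise not tested independently.

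For the named genes of the lists the difference between the lines was tested as an interaction term in limma. These genes were picked for large called drug differences, a choice that favours large differences between the lines. TNNT2 (-0.56, adjusted p = 0.395), FLNA (0.98, adjusted p = 0.00261) and LMO7 (-0.61, adjusted p = 0.0145) were not called. FLNA and LMO7 missed only the 2-fold threshold, and the other genes are given below. Of all genes, 7.56% were called in this comparison. It was 5.24 for LMOD1 (adjusted p = 0.000455) and 3.20 for ACTG2 (adjusted p = 0.000231). ACTA2 differed by 5.31 (adjusted p = 0.000131), and its OVSAHO difference was not called. TNNC1 differed by -2.05 (adjusted p = 0.000312), with the larger drug difference in OVSAHO. MICAL1 differed by 2.04 (adjusted p = 0.00119) and ACTN1 by 1.18 (adjusted p = 0.000754).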

How the results depend on the processing

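The 9 genes kept their direction in both drug comparisons under every alternative run. In the drug comparisons and their difference, 441 single-gene values moved by less than the SD between replicates and 63 by more. Many unmoved values, here and between the lines, were fixed in advance. At these probes the filters, the floor, the replicate block, the analysis of variance and a fit of only the groups compared cannot change a log2 difference. Nor can leaving out an array of the other line change a drug comparison. The counts therefore overstate how far the values withstand the processing. Between the lines, 156 values kept their direction and their side of the threshold and 6 turned. For TPM2 (0.03) these were -0.24 with quantile normalization and in the table of the authors and -0.01 without KURAMOCHI L-778123 replicate 2 (leaving out single arrays gave -0.01 to 0.07). For TPM3 (0.23) they were -0.03 with quantile normalization and in that table and -0.01 for the median signal over its probes. In OVSAHO 5 genes were called, 8 at a fold of 1.5 and 9 with no fold threshold. Between the lines 4 were called, and 8 with no fold threshold. With each array left out, 4 to 5 genes were called in OVSAHO, 6 in KURAMOCHI, 3 to 4 for the difference between the lines and 4 between the lines. The fit with the replicate block called 5, 6, 4 and 4 genes. For arrays of equal number, the deviations from the group means correlated at 0.000848 to 0.0555 between groups, and the block changed no call of a member. The labels do not say what the number stands for, and low correlations cannot tell whether such arrays shared a culture or a day.

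With normexp the calls over all probes fell from 3700 to 1556 in OVSAHO, from 1889 to 657 in KURAMOCHI, from 2397 to 1027 for their difference and from 11366 to 6441 between the lines. Among the members it lost CNN1 (0.67) and TAGLN2 (0.99) in OVSAHO and gained TPM2 (-1.01). CALD1 lost its call for the difference between the lines with quantile normalization (-0.96) and in the table of the authors (-0.97). TPM4 was called for that difference at a fold of 1.5. The causes were not tested. The dimness of the CNN1 probe and 2 arrays per group limit the precision.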
